A study of Mus musculus with 4 samples.

Results

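Exon sense-overlapping transcripts are noncoding RNAs that are read from the same strand as a gene and share exon sequence with it. They are made from the DNA of known genes, mostly protein-coding ones, as retained-intron forms, short processed forms and fragments, and they differ from intergenic and antisense lncRNAs in that a probe for them can lie in sequence that the mRNA also carries. In macrophages the stimuli that start or stop a gene act at its promoter, which noncoding forms that begin there share with the mRNA, while splicing and decay set how much of each form is left.

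The transcripts described here were taken from the study's own lists of lncRNAs that were higher or lower at 24, 72 or 96 h than at 0 h. The lists hold 3937 distinct probes, of which 910 have exon sense-overlapping as their only relation to a gene. After 4 symbols were left out, 906 remained, 1 probe per symbol, and each of the 906 was well above background on some array, so they are 906 of the 60804 probes of the table. The members were thus chosen by their fold differences against 0 h on these same arrays, and those differences are given as a description. Of the 906, 842 stood in a list of higher lncRNAs and 69 in a list of lower ones, with 5 in both. The lists of lower lncRNAs were read in shortened copies and none was read for 96 h, so that no member was chosen for a lower value at 96 h.

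The cells were RAW264.7, an established mouse macrophage line that turns into bone-resorbing osteoclasts under RANKL, and the dose was 100 ng/mL RANKL with 50 ng/mL M-CSF. The labels name 4 stages, the monocyte (0 h), the pre-osteoclast (24 h), the mature osteoclast (72 h) and the activated osteoclast (96 h), each with 1 array. No time point was repeated, so there is no p-value, standard error or replicate SD for any difference, and how precise any of them is was limited by there being so few arrays. Barcodes in the scanner file headers put 0 h and 72 h on slide 1 and 24 h and 96 h on slide 2. The comparisons of 72 h with 0 h and of 96 h with 24 h are thus within a slide, and in the others an effect of the slide and one of time cannot be told apart. The only error that the arrays give is between spots of the same probe, with a median SD of 0.05 to 0.07 on the log2 scale over 15 repeated probes well above background on each array. All cells come from 1 line, and in bulk RNA a smaller share of cells of a kind and less RNA per cell cannot be told apart. The markers looked for were such genes as Ptprc and Csf1r for macrophages, Acp5, Ctsk and Mmp9 for osteoclasts, and Col1a1, Sparc, Runx2 and Bglap for bone-forming cells. Among them the files pair a name with a probe for noncoding transcripts of Mmp9, Col1a1, Sparc and Runx2 alone, so the labelled stages were not checked against mRNA markers.

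Values are the authors' quantile-normalised log2 signals. A comparison took in each probe that either of its 2 arrays had well above background. A dim value on the other array was replaced, where lower, by the smallest value among that array's probes well above background, which was 4.81, 5.17, 5.15 and 4.41 at 0, 24, 72 and 96 h, and the fold is then written as "at least". Higher and lower mean at least 2-fold. Levels of different probes are not compared with each other.

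On GRCm38, 905 of the 906 transcripts overlapped a RefSeq gene not known to lie on the other strand, 904 of these genes were protein coding, and 862 carried the transcript's own symbol or a synonym of it. The transcripts covered a median of 40.6% of their host gene, with the middle of the distribution between 14.9% and 81.1%. Of 724 whose host has an annotated start, 244 began within 100 bases of a start and ended short of the gene's end, 76 ended within 100 bases of the end only, 87 did both and 317 did neither. Most of the annotations (772) come from Ensembl, 111 from UCSC and 18 from RefSeq.

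The probe is the stretch of transcript that was measured, and the 4 below are shown because the results turn on their transcripts and because each has a reading frame with no stop codon. Capitals mark the codons of the first such frame, counted on the transcript's strand, and coordinates are those of the whole transcript on GRCm38.
Trib3 (chr2:152339748-152343988, minus strand): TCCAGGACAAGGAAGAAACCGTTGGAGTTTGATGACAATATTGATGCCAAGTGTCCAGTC
Aldh1l2 (chr10:83494742-83534081, minus strand): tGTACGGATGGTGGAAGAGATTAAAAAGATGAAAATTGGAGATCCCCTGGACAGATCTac
IkappaB-zeta (chr16:55817746-55818515, minus strand): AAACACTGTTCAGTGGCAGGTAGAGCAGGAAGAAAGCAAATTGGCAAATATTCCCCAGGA
Lmna (chr3:88481846-88503337, minus strand): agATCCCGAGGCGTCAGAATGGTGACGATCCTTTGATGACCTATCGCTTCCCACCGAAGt
Of the 906 probes, 724 (79.9%) had at least 1 stop-free frame on the transcript's strand and 82.6% had one on the reverse complement, so the share says nothing about coding. Among 420 natural antisense lncRNAs of the same lists these shares were 72.6% and 76.9%. A polyadenylation signal (AATAAA or ATTAAA) lay in 8.28% of the 906 probes and in 20.7% of the antisense ones, and the median GC content was 45.0% against 41.7%. No test of these differences was made. Whether a probe also read the mRNA of its host gene was not tested.

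At 0 h 521 of the 906 transcripts (57.5%) were well above background, and 623, 629 and 780 (86.1%) were so at 24, 72 and 96 h. Among all 60804 probes the shares were 62.3%, 58.8%, 59.8% and 66.8%, but these include probes that no array detected. Of the 43139 probes detected on at least 1 array, 37907, 35768, 36331 and 40597 were so at 0, 24, 72 and 96 h. Set beside those, the transcripts were detected less often at every stage. Their low share at 0 h follows in part from the choice of members. Detection held on all 4 arrays for 445 transcripts (49.1%), beside 75.7% of the 43139 probes, and on a single array for 235 (25.9%). The largest group of those seen once was detected at 96 h (136), followed by 72 h (48), 24 h (45) and 0 h (6). The values nearest to the detection limit were 4.47 for Vsig4, 4.48 for Fgf13 and 4.51 for Sytl4, each at 96 h, and no transcript of the lists fell outside it.

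**Figure D1:**
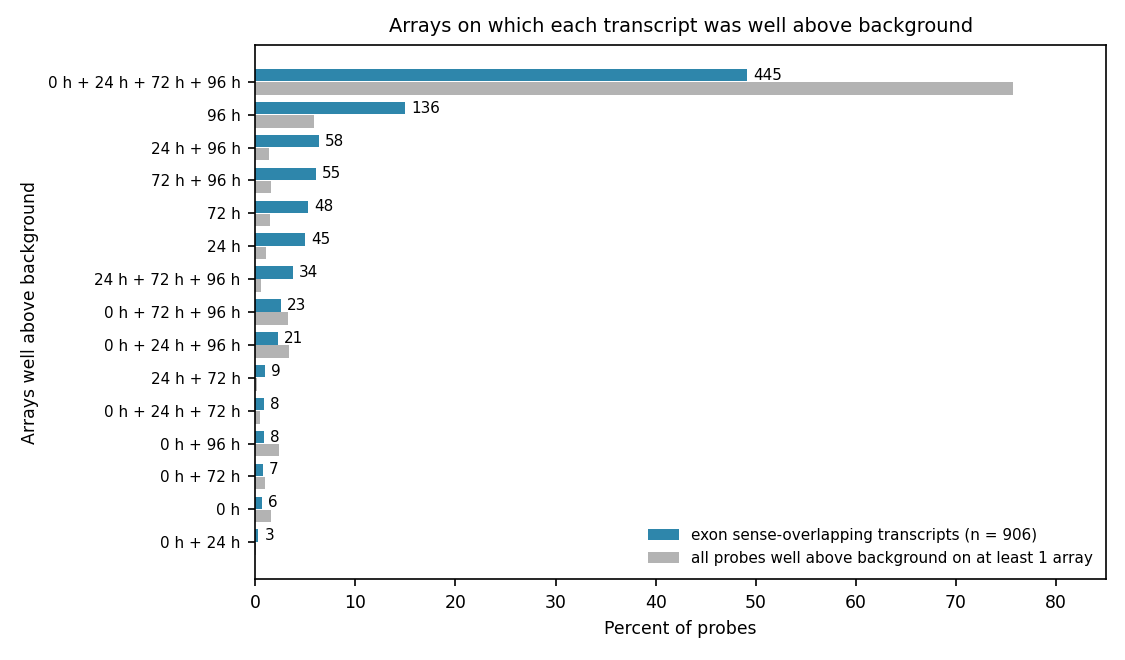
Bars give the percent of probes (horizontal axis) for each combination of arrays on which a probe was well above background (vertical axis), blue for the 906 exon sense-overlapping transcripts with their counts and grey for all probes that any array had well above background. Detection on all 4 arrays holds for 49.1% of the transcripts and 75.7% of all such probes, and detection at 96 h only for 15.0% and 5.85%.

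Of the 902 transcripts with no outlier spot, 347 (38.5%) had their highest value at 96 h and 316 at 72 h. The 24 h array held the highest value of 209 and the 0 h array that of 30 (3.33%). Over all probes detected on an array the shares were 32.6%, 28.9%, 24.1% and 14.4%. The low share at 0 h follows from the choice of members, since most came from lists of lncRNAs higher than at 0 h. By place in the host gene, the share highest at 72 h was 43.0% for the 244 transcripts that began at an annotated start only, 34.9% for those that spanned the gene, 31.5% for those with neither end and 30.3% for those at the gene's end.

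Against 0 h, 221 of the 664 transcripts that entered were higher at 24 h, where 3.4% of all probes were, and 42 were lower, where 6.09% were. At 72 h 265 of 665 were higher (4.34% of all probes) and 21 were lower (5.29%). At 96 h 285 of 801 were higher (5.72%) and 51 lower (8.37%). These contrasts chose the members, so nothing is read from the counts. Of the transcripts listed as higher, 67.0% at 24 h, 75.1% at 72 h and 72.0% at 96 h were past 2-fold here; of the rest, 59, 27 and 4 were not well above background on either array or had an outlier spot, and others fell short once the dim value was raised to the limit. The smallest listed rise at 24 h was 1.00 on the log2 scale.

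Between the later stages higher and lower counts were closer. These contrasts share arrays with those that chose the members. Shares above those of all probes thus follow in part from the choice, in both directions. From 24 h to 72 h 157 of 754 transcripts were higher and 151 lower, against 8.28% and 8.19% of all probes. From 72 h to 96 h 188 of 850 were higher and 226 lower, against 10.9% and 12.9%, and from 24 h to 96 h, within slide 2, 113 of 843 were higher and 132 lower, against 5.33% and 6.5%. The splits between the directions depended on the scaling. With each array scaled to its 75th percentile, 260 were higher and 170 lower at 96 h than at 72 h (250 and 174 with scaling to the median of probes detected on all arrays), and 137 higher and 204 lower at 72 h than at 24 h. Background correction by normexp also moved the split at 24 h against 0 h, to 59 higher and 33 lower, and without background subtraction it was 80 and 35. The 75th percentile moved the median of all probes between 72 h and 96 h by 0.13, and the list counts between these stages stand beside that shift.

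**Figure D2:**
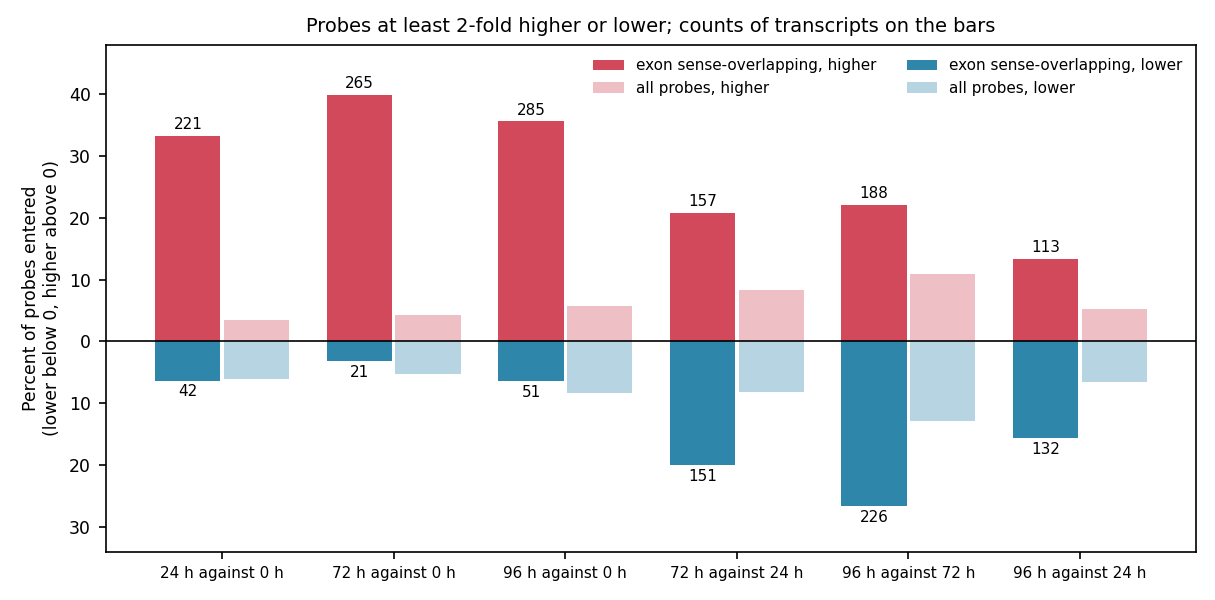
Bars show the percent of entered probes that were at least 2-fold higher (above 0) or lower (below 0) in each of the 6 comparisons, dark for the exon sense-overlapping transcripts with their counts and pale for all probes. The first 3 comparisons chose the members, and the other comparisons share arrays with them. From 72 h to 96 h 188 transcripts were higher and 226 lower.

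The first gene list holds amino acid supply and the unfolded protein response. These are genes by which cells answer misfolded protein in the endoplasmic reticulum or a lack of amino acids. Of 20 transcripts of this list, 15 had their highest value at 72 h. This contrast chose the members, and at 72 h 39.8% of the 665 transcripts that entered and 4.34% of all probes were higher than at 0 h. Of the list, 15 of the 19 that entered were higher and 0 lower. The median log2 difference was 1.54 beside 0.61 for all transcripts entered and 0.05 for all probes, and the list was drawn up with the members known. At 96 h 12 of 20 were lower than at 72 h, where 26.6% of the 850 transcripts that entered and 12.9% of all probes were. Another 2 were higher, and the median was -1.54 beside -0.20 for all transcripts entered. Transcripts chosen for a high value at 72 h tend to be lower on the next array. This fall and those of the lists below are thus given as a description. Under the other scalings and background settings the count at 72 h ran from 11 to 15 and that of lower transcripts at 96 h from 10 to 13.

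Trib3, a pseudokinase made when amino acids are short, was at 2.62, 2.66, 7.89 and 2.66 at 0, 24, 72 and 96 h. Only the 72 h array was above background, so the level there was at least 8.47-fold that of 0 h and at least 11.1-fold that of 96 h. Nupr1, a small stress-induced chromatin protein, was at 2.65, 8.94, 9.67 and 4.97. It was therefore at least 17.6-fold above 0 h at 24 h, and its 96 h value was 26.0-fold below that of 72 h, and it is the one transcript of the list that was high at 24 h by such a margin. Aldh1l2, a mitochondrial enzyme of folate metabolism, was at 5.09, 5.12, 8.21 and 4.60, 8.68-fold higher at 72 h than at 0 h. Atf3, a transcription factor of the stress response, was at 7.66, 7.38, 10.11 and 8.68, with 72 h 5.44-fold above 0 h.

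The transporters of the list that bring amino acids into the cell all peaked at 72 h. Slc7a11, the cystine carrier, was at 5.87, 5.71, 8.01 and 5.44. Its partner Slc3a2, the heavy chain that takes several such carriers to the membrane, was at 10.28, 9.89, 12.10 and 10.60, and Slc7a5, a carrier of large neutral amino acids, was at 5.58, 5.79, 7.11 and 5.31. For each of these 3 the 72 h value was the highest, by 4.41-fold, 3.53-fold and 2.90-fold over 0 h. Slc6a9, the other transporter of the list, was also highest at 72 h. Its log2 difference from 0 h was 1.43 at 72 h and 1.15 at 96 h. Ppp1r15a, which restarts translation after stress, was at 10.05, 10.56, 11.87 and 9.64. Herpud1, a part of the machinery that clears misfolded protein, was at 6.23, 6.66, 7.80 and 5.84, and Stc2, a secreted glycoprotein, at 11.97, 12.79, 13.93 and 10.66. Stc2 was 3.89-fold above 0 h at 72 h and 2.48-fold below 0 h at 96 h. Cars, the cysteinyl-tRNA synthetase, did likewise, at 6.66, 7.08, 8.20 and 5.35. The list was not uniform. Creb3l2, a membrane-bound transcription factor of the same stress, was lowest at 72 h, with 13.35, 13.17, 12.74 and 14.43, and Dnajb11, a chaperone partner in the endoplasmic reticulum, was highest at 24 h, with 13.53, 14.65, 13.54 and 14.08.

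The bases before the annotated start are shown for genes of the stress list and of the interferon list below, since several members of each list peaked at 72 h. The Slc7a11, Oas1g and Ifi203 transcripts began within 100 bases of an annotated start, and those of Atf3 and Nupr1 did not. The windows are the 150 bases before the start in RefSeq, GRCm38.p6, 5′ to 3′ on the gene's strand. Capitals mark TGATGNAA, the core of an amino acid response element, or GAAA followed by any 2 bases and GAAA, the core of an interferon-stimulated response element, on either strand. In Oas1g 2 matches overlap.
Slc7a11 (chr3:50443614-50443763, minus strand): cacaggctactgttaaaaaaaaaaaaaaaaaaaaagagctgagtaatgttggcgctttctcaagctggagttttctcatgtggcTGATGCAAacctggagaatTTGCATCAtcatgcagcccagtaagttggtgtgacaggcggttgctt
Atf3 (chr1:191183334-191183483, minus strand): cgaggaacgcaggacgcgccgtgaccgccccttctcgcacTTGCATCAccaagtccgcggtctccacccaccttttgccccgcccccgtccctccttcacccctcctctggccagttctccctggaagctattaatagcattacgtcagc
Nupr1 (chr7:126625471-126625620, minus strand): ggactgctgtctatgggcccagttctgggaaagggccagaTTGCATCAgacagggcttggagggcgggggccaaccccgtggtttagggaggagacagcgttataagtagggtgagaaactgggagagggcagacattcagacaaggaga
Oas1g (chr5:120887614-120887763, minus strand): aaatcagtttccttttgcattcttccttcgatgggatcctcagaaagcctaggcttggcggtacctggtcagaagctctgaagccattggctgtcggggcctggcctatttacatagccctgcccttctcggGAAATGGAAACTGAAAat
Ifi203 (chr1:173942493-173942642, minus strand): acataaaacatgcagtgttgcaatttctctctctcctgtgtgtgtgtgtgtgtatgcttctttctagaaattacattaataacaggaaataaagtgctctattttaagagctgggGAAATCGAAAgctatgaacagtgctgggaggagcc
In the full windows, from 250 bases before the start to 50 after it, TGATGNAA lay in 6 of the 16 genes of the stress list with a window (Atf3, Herpud1, Nupr1, Slc7a11, Trib3 and Yars), beside 4.51% of 27025 genes and 26 of 691 host genes of the transcripts. The interferon element lay in 5 of 10 genes of the interferon list (Gbp3, H2-T23, Ifi203, Ifi211 and Oas1g), beside 3.99% of all genes and 38 of 691 hosts. Here Ifi211 is the RefSeq name of the host of the transcript listed as Mnda. The endoplasmic reticulum stress element, CCAAT and CCACG with 9 bases between them, lay in 0 of 16 stress genes and 0.137% of all genes. TGATGNAA also lay in 2 of 10 genes of the interferon list. The interferon element also lay in 1 of 16 stress genes and in 3 of 15 genes of the cytokine list below. Neither lay in any of 21 genes of the actin list. The lists were drawn up by known pathway, and the genes printed above are ones with a match. The motifs were chosen after the values were seen. A match is no evidence of binding, and no match says only that the letters are not in the window.

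Interferon-induced genes, which arm cells against viruses, had the lowest median difference between 72 h and 96 h of the 13 lists. Of 10 transcripts, 8 were highest at 72 h, 7 were then higher than at 0 h and 0 lower, beside 39.8% of the transcripts entered and 4.34% of all probes higher. At 96 h 7 were lower than at 72 h, beside 26.6% of the transcripts entered and 12.9% of all probes, and 1 was higher. The median log2 difference was -2.31 beside -0.20 for all transcripts entered. Within slide 2, 6 of 10 were lower at 96 h than at 24 h, beside 15.7% of the transcripts entered and 6.5% of all probes. There 1 was higher, and the median was -1.43 beside -0.08. Other settings gave 5 to 7 and 5 to 6 lower transcripts.

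Ifi44, an interferon-induced cytoplasmic protein, was at 13.80, 14.62, 15.19 and 10.87, so that 96 h was 20.0-fold below 72 h and 7.61-fold below 0 h. Oas1g, which makes the 2-5A signal that activates RNA decay in infected cells, was at 7.20, 8.04, 8.75 and 4.61, 17.6-fold lower at 96 h than at 72 h. Ifi203 and Mnda, DNA-binding proteins of one interferon-induced family, were at 10.97, 11.41, 12.19 and 9.40, and at 12.08, 12.62, 13.57 and 11.23. All 4 were higher at each stage up to 72 h, by less than 2-fold a step, and below their 0 h value at 96 h. BC094916, which overlaps Ifi214 of the same family, had the same order with 7.65, 8.63, 8.96 and 4.55, though it is not in the list. H2-T23, a nonclassical MHC molecule, was at 9.88, 10.59, 11.22 and 8.91. Gbp3, an interferon-induced GTPase, went the other way, with 5.65, 6.86, 5.57 and 7.00, high on both arrays of slide 2, and Oasl1 was highest at 96 h, with 7.37, 7.39, 7.83 and 8.40.

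Among cytokines and inflammatory signalling, 13 of 21 transcripts were highest at 72 h. At 72 h 11 of 19 were higher than at 0 h and 0 lower, beside 39.8% of the transcripts entered and 4.34% of all probes higher. The count of 11 was 7 under the setting that lowered it most. At 96 h 10 of 21 were lower than at 72 h and 4 higher. Of the transcripts entered, 26.6% were then lower and 22.1% higher, and of all probes 12.9% and 10.9%. IkappaB-zeta, a nuclear partner of NF-kappaB that lies on the gene Nfkbiz, was at 8.58, 9.47, 9.97 and 5.86, which is 17.3-fold lower at 96 h than at 72 h. Lcn2, an iron-withholding protein of the innate response, was at 2.65, 2.60, 7.33 and 2.80, above background at 72 h only and there at least 5.75-fold higher than at 0 h. Cd86, a costimulatory receptor, was likewise seen at 72 h only, at 3.92, 4.72, 7.59 and 2.80. The chemokine Ccl4 was at 12.48, 13.10, 14.04 and 12.71. Ccl6, another chemokine, was below background at 0 h and stayed up, at 4.90, 6.20, 7.04 and 6.93. Il4i1, a secreted amino acid oxidase, was seen at 96 h only, at 2.66, 2.59, 2.67 and 6.89.

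Surface receptors of myeloid cells gave 8 of 14 transcripts with their highest value at 72 h and 6 at 96 h. At 72 h 9 of 10 were higher than at 0 h and 0 lower, beside the same 39.8% and 4.34%, although this count was 4 under the least favourable setting. Cd52, a small surface glycoprotein of leukocytes, was at 7.57, 7.33, 9.17 and 5.53. Gp49a, an immunoglobulin-like receptor, was at 9.82, 9.37, 11.55 and 10.98, and Spn, the sialoglycoprotein CD43, was above background at 72 h only, with 6.93. Cd52 was thus 12.5-fold lower at 96 h than at 72 h, whereas Gp49a stayed within 2-fold of its 72 h value.

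**Figure D3:**
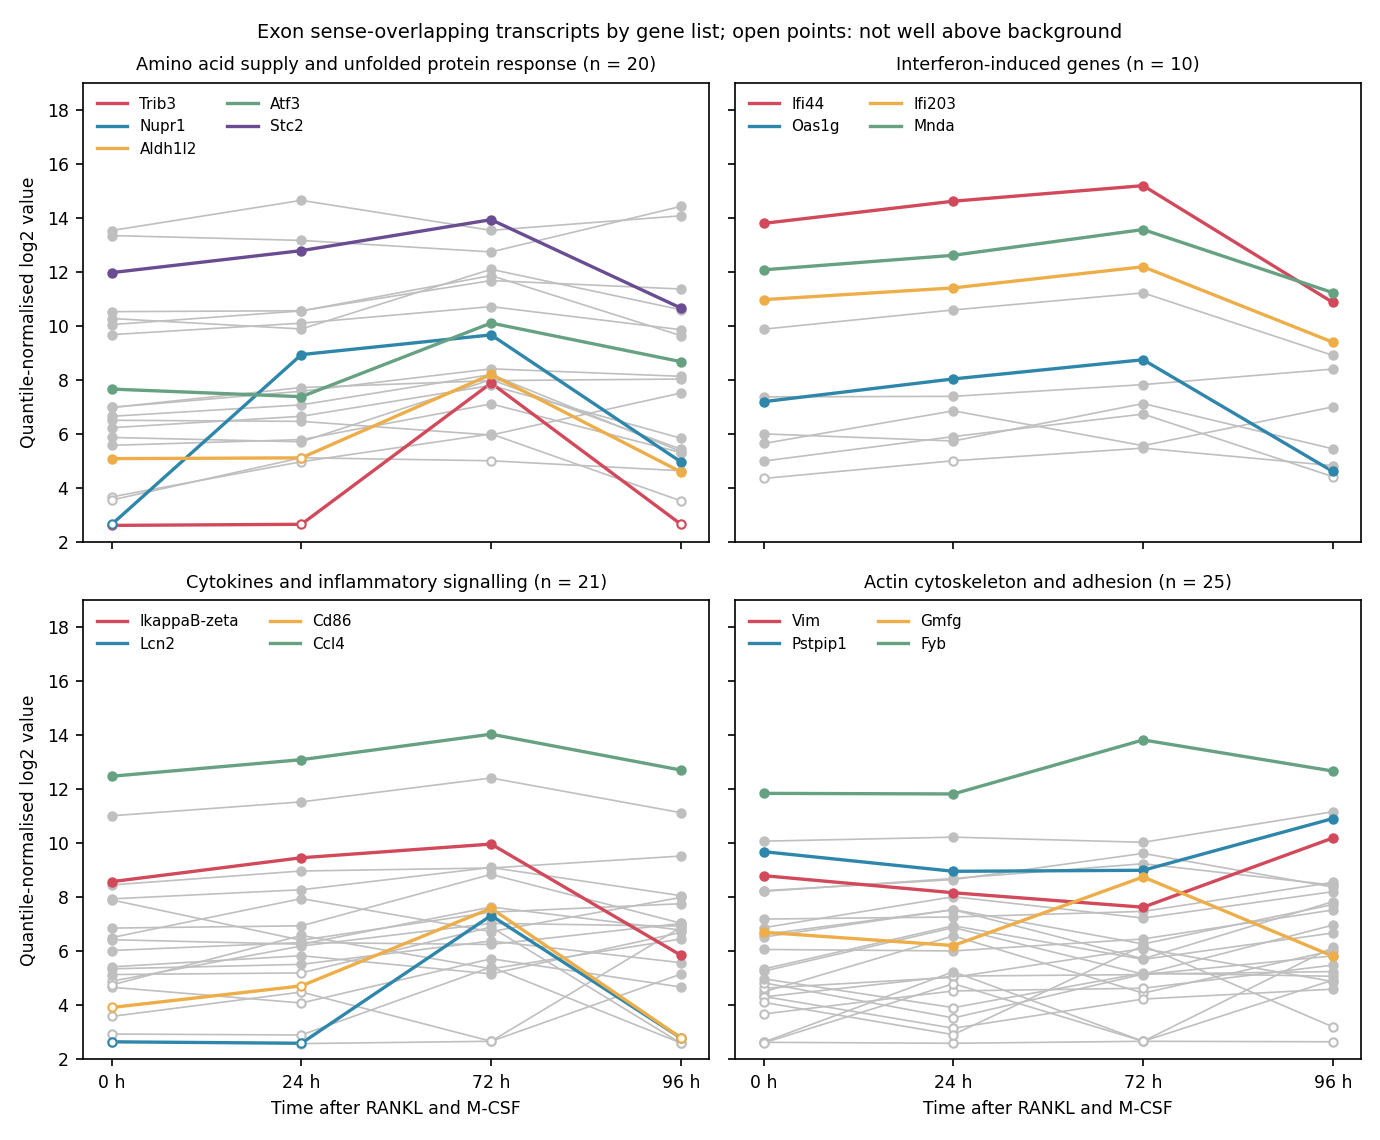
Each line is 1 transcript, its quantile-normalised log2 value (vertical axis) against time in h (horizontal axis, stages evenly spaced), for 4 gene lists, with filled points well above background and open points not. In the stress list 15 of 20 peak at 72 h, in the interferon list 8 of 10 do and 7 are at least 2-fold lower at 96 h, and in the actin list 15 of 25 are highest at 96 h.

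The noncoding transcripts listed for genes of osteoclast formation and resorption did not move as a group. The paper reports that most RANKL-dependent genes rose in expression, and these values do not address that. Whether the probes also read the mRNAs was not tested. Of 16 transcripts, 6 were highest at 72 h and 5 at 96 h, with 4 at 24 h and 1 before RANKL. At 72 h 6 of 13 were higher than at 0 h (3 under another setting) and 2 lower, beside the same 39.8% and 4.34% higher. The median log2 difference was 0.52 beside 0.61 for all transcripts entered. The lower ones were Mmp9, the matrix metalloproteinase that osteoclasts secrete, and Slc9b2, a sodium-proton exchanger of osteoclasts. The noncoding Mmp9 transcript was at 8.90, 7.42, 6.35 and 8.06, 5.85-fold lower at 72 h than at 0 h. Slc9b2 was at 8.66, 8.97, 5.54 and 8.32, 8.69-fold lower at 72 h than at the start and 6.86-fold higher at 96 h than at 72 h. Both were thus lowest at 72 h and higher again at 96 h. The noncoding transcript of Irf8, a transcription factor that restrains osteoclast formation, was at 9.18, 9.53, 11.05 and 9.27. By qPCR the paper reports that the Irf8 mRNA went down during osteoclast formation. That is another RNA form, and it was not compared here. The transcript of Bcl6, a transcriptional repressor, was at 7.76, 8.50, 9.40 and 6.55. Snx10, a sorting protein that osteoclasts need to acidify the bone surface, was above background only at 72 h and 96 h, with 4.92, 4.63, 7.40 and 4.53. Map3k8, a kinase of the ERK cascade, was at 5.25, 5.77, 7.34 and 5.16. Ltbr, a TNF-family receptor, and Tab2, an adaptor of the RANKL pathway, were highest at 96 h, with 7.45, 7.96, 7.18 and 9.01, and with 4.46, 4.45, 4.43 and 6.60. Of 7 transcripts of bone-forming cells and bone matrix, another cell type, 5 were highest at 96 h. Then 4 of 7 were higher than at 0 h and 0 lower, beside 35.6% of the transcripts entered and 5.72% of all probes higher. The median log2 difference was 1.12 beside 0.47 for all transcripts entered, and the count was 1 under another setting. These 2 arrays lie on different slides. Within slide 2, 2 of 7 were higher at 96 h than at 24 h and 1 lower, beside 13.4% of the transcripts entered and 5.33% of all probes higher. The median there was 0.16 beside -0.08 for all transcripts entered. The Col1a1 transcript was at 4.62, 6.57, 5.41 and 6.73, the Runx2 one at 5.82, 6.09, 7.15 and 5.47, and the Sparc one was above background at 96 h only, with 5.19.

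Of the actin and adhesion genes, 13 of 23 were higher at 96 h than at 0 h and 0 lower, beside 35.6% of the transcripts entered and 5.72% of all probes higher. The median log2 difference was 1.09 beside 0.47 for all transcripts entered, and the bone-forming list, whose part in this was not tested, had 1.12. The count of 13 was 4 under the setting that lowered it most. This contrast chose members, and its arrays lie on different slides. Within slide 2, 4 of 24 were higher at 96 h than at 24 h and 0 lower. Of the transcripts entered 13.4% were then higher, and of all probes 5.33%. The median log2 difference there was 0.14 beside -0.08 for all transcripts entered. Of 25, 15 were highest at 96 h. Vim, the intermediate filament protein vimentin, was at 8.80, 8.17, 7.63 and 10.20, and Pstpip1, a scaffold of the podosome, at 9.69, 8.96, 9.00 and 10.92. Vim was 4.08-fold higher at 96 h than at 24 h and 2.25-fold lower at 72 h than at 0 h, each within 1 slide. Lmna, which encodes the nuclear lamina proteins lamin A and C, was likewise lowest at 72 h and highest at 96 h, at 16.22, 16.48, 15.19 and 17.25. Of the others 7 were highest at 72 h and 3 at 24 h. Among the 7, Gmfg, a regulator of actin branching in leukocytes, was at 6.71, 6.22, 8.76 and 5.82, and the adaptor Fyb at 11.85, 11.83, 13.83 and 12.68.

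The remaining lists held smaller or mixed counts. Of 12 splicing genes, 7 of 11 were higher at 96 h than at 0 h and 0 lower, with a median log2 difference of 1.07. Other settings gave as few as 3. Among the 7 was Srsf2, a splicing regulator, with 11.97, 11.72, 12.34 and 13.21. Within slide 2, 3 of 11 splicing genes were higher at 96 h than at 24 h and 1 lower, with a median of 0.27. Of the transcripts entered 13.4% were then higher, and of all probes 5.33%. Of 24 chromatin genes, 10 of 22 were higher and 2 lower at 96 h than at 0 h, with the higher count at 1 under another setting. Baz1b, a chromatin remodelling subunit, was seen at 96 h only, with 8.75, at least 15.4-fold above 0 h, whereas Kdm6b, a histone demethylase induced in activated macrophages, was at 9.51, 10.36, 10.52 and 8.36. Of 17 lysosome and mTORC1 genes, 5 of 10 were higher than at 0 h at 24 h, 4 of 13 at 72 h and 5 of 17 at 96 h, where 1 was lower, and other settings gave as few as 1, 1 and 0 higher. Of 11 translation genes, 2 of 9 were higher at 24 h, 4 of 10 at 72 h and 5 of 9 at 96 h, with 0 lower, and the last 2 counts were as low as 1 and 2 under other settings. Neuronal genes, another cell type, gave 6 of 11 higher at 24 h, 1 of 9 at 72 h and 6 of 12 at 96 h, with 1, 0 and 1 lower. Other settings gave as few as 2 higher at 24 h and 4 at 96 h. The 24 h and 96 h arrays share slide 2, and the part of the slide was not tested. The shares higher at 24, 72 and 96 h than at 0 h were 33.3%, 39.8% and 35.6% of the transcripts entered, and 3.4%, 4.34% and 5.72% of all probes. Of 5 iron genes, Ftl1, the ferritin light chain, was lower at all later stages, at 15.46, 13.29, 14.37 and 14.34, and Fth1, the heavy chain, was higher at 72 h and 96 h, with 7.33, 6.86, 8.35 and 8.34.

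Of transcripts well above background on both arrays compared, which leaves out Nupr1, the highest at 24 h over 0 h was Zfyve28, a regulator of receptor turnover in endosomes, by 12.3-fold, with 5.30, 8.92, 4.82 and 6.98 over the 4 stages. Mill2, an MHC class I-like molecule, followed with 5.70, 8.53, 6.14 and 5.85, and Atpaf2, an assembly factor of the ATP synthase, with 5.71, 8.28, 6.35 and 4.89. The last 2 were back within 2-fold of 0 h at 72 h and 96 h. Over the same kind of transcripts, the highest at 72 h was Dhrs3, a reductase of the retinoid pathway, with 6.18, 6.22, 9.47 and 5.69, 9.82-fold above 0 h and 13.8-fold above 96 h. Dpep2, a membrane dipeptidase, was at 8.16, 8.51, 11.05 and 8.73, Stap1, a signalling adaptor, at 5.48, 6.26, 8.35 and 4.99, and Sqrdl, the mitochondrial enzyme that oxidises sulfide, at 6.06, 6.59, 8.86 and 5.50. These 4 had a single high stage, 72 h, and the comparison lies within slide 1. At 96 h Tyms, the enzyme that makes thymidylate, was 5.23-fold above 0 h, at 10.77, 12.74, 11.01 and 13.16, and St6gal1, a sialyltransferase, 4.17-fold, at 10.23, 9.54, 10.05 and 12.29. Ptpn4, a protein tyrosine phosphatase, was 12.5-fold lower at 96 h than at 0 h, at 8.48, 4.87, 8.57 and 4.84. Its values were alike within each slide, so slide and time cannot be told apart for it.

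Among transcripts well above background on all 4 arrays, the widest range belonged to AK207499, which lies at the end of Cpe (chr8:64592543-64592716, minus strand), the gene of carboxypeptidase E, a processing enzyme of secreted peptides. It was at 15.62, 12.67, 10.91 and 16.95. The 72 h value was 26.1-fold below that of 0 h, and the 96 h value was 65.5-fold above that of 72 h. The lists name the Cpe mRNA as a transcript that the probe also binds, so its values are those of both RNAs. Such a cross-reacting transcript is listed for 9 of the 906, and for 6 of these it comes from the host gene itself. They include AK202516, at the end of P4hb, a protein disulfide isomerase, which was lowest at 0 h, with 15.70, 17.88, 17.65 and 17.62. More than 1 transcript was measured for 3 hosts. On Stim1, the calcium sensor of the endoplasmic reticulum, the transcript of that name was at 7.99, 9.13, 8.51 and 8.00 and AK191080 was above background at 0 h only, with 5.01.

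A listed antisense transcript lay opposite 15 of the 906, in 16 pairs. Opposite Card9, an adaptor of fungal recognition that was at 7.94, 8.28, 9.11 and 8.06, Gm13562 was at 5.26, 5.22, 6.62 and 6.74. Opposite Eps8l2, an actin regulator, B230206H07Rik was at 5.87, 6.95, 6.27 and 6.76, beside 5.66, 6.91, 6.34 and 6.65 for the sense transcript, so both were lowest at 0 h and highest at 24 h. Opposite Dclre1b, a DNA repair nuclease with its highest value of 6.80 at 72 h, Gm15471 was at 11.63, 12.84, 11.35 and 7.86. No common order of the stages held for these 3 pairs.

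Some transcripts were called in opposite directions against 0 h at different stages, and these differences too chose the members. Higher at 72 h but lower at 96 h were 25, where 0.449% of all probes were, and lower at 72 h but higher at 96 h were 9 (0.619%). Higher at 24 h but lower at 72 h were 2 (0.0314%), and the reverse held for 5 (0.0812%). Higher at 24 h but lower at 96 h were 5 (0.0801%), and the reverse held for 3 (0.406%), among them AK207499 and Vwf, the gene of von Willebrand factor. Higher at all later stages were 5 (0.123%), namely AK202516, Ccl6, Cobll1, Fam179b and Rb1cc1, an autophagy protein, and lower at all were 4 (0.85%), namely Ftl1, Gpr83, Morf4l2 and Vash2.

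The stages on the same slide were also set side by side. Higher at 24 h and 96 h (slide 2) than at both 0 h and 72 h (slide 1) by at least 2-fold were 55 of 902 transcripts, where 0.631% of all probes were, and the reverse held for 15, where 2.71% of all probes did. The rule used 2 of the differences involved. Tyms, Zfyve28, Fermt2 (an integrin activator, 5.27, 6.88, 5.16 and 6.97) and Stoml2 (a mitochondrial membrane protein, 10.85, 12.45, 10.67 and 12.50) were among the 55, and Canx, the chaperone calnexin, at 9.74, 8.33, 9.67 and 8.32, among the 15. Here slide and time cannot be told apart.

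Within the slides, 603 transcripts entered both 72 h against 0 h and 96 h against 24 h, which share no array. The first of these chose members, and transcripts chosen as higher at 24 h tend to be lower at 96 h than at 24 h. The counts and steps here thus follow in part from the choice, and nothing is read from their excess over all probes. Higher at 72 h and lower at 96 h were 43, where 0.818% of all probes were, higher in both were 14 (0.17%), lower and then higher 9 (0.898%) and lower in both 3 (0.209%). Among 443 transcripts well above background on all 4 arrays with no outlier spot, the commonest sequence of steps was no 2-fold step from 0 h to 24 h, a rise to 72 h and a fall to 96 h, with 73 transcripts (16.5%), where 2.36% of all such probes had it. A further 72 (16.3%) had no 2-fold step, where 70.5% of all such probes had none, 59 (13.3%) only a rise to 96 h (5.62%) and 43 (9.71%) only a fall to 96 h (6.15%). A rise to 24 h, a fall to 72 h and a rise to 96 h, which follows the slides, was found for 43, where 0.692% of all probes had it.

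**Figure D4:**
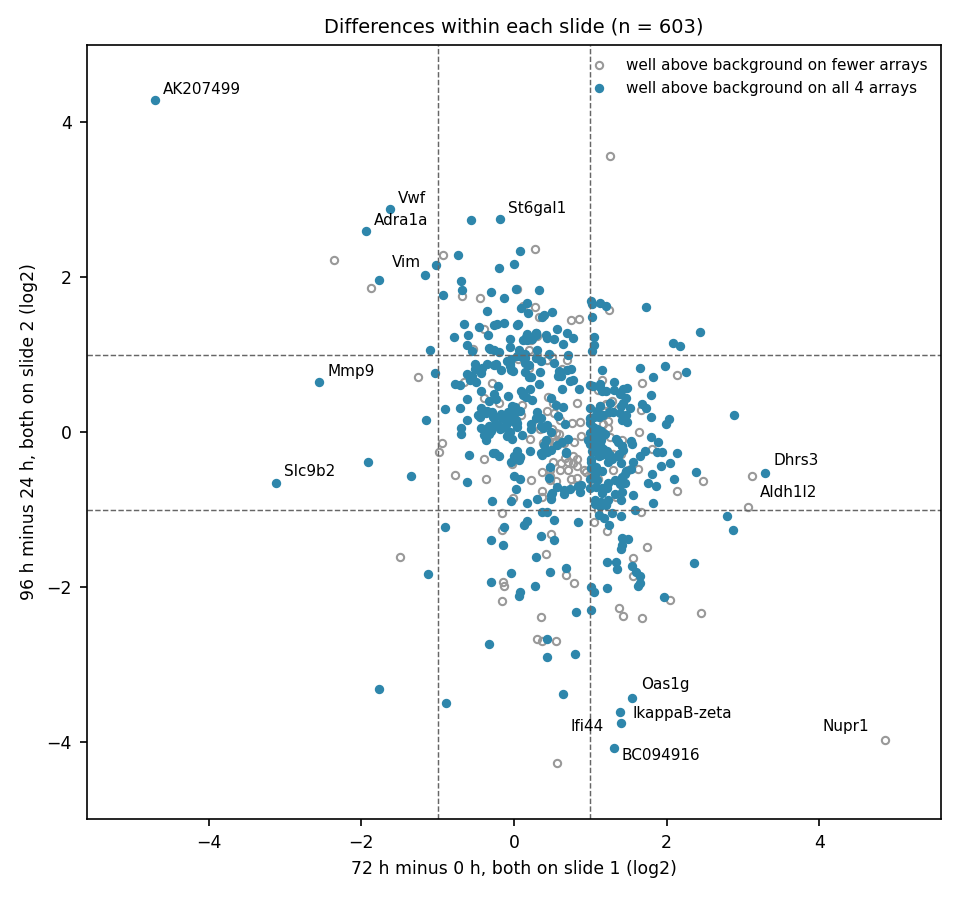
Each point is 1 of 603 transcripts, the log2 difference of 72 h minus 0 h on slide 1 (horizontal axis) against 96 h minus 24 h on slide 2 (vertical axis), with dashed lines at 2-fold, filled points well above background on all 4 arrays and open points on fewer. The interferon transcripts Ifi44 and Oas1g lie at the lower right with Nupr1, and AK207499, Vwf, Adra1a and Vim at the upper left.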

How the data were processed

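Each of the 4 stages of RAW264.7 cells was hybridised to 1 one-colour Arraystar Mouse LncRNA V3.0 array. The authors quantified the spots with Agilent Feature Extraction (11.0.1.1 in the file headers) and deposited spot intensities and flags, together with 60804 log2 values that they had quantile-normalised with GeneSpring. The log2 values were used as deposited, with a value left out where the spot was an outlier (4 of the 906 transcripts, Atp5k, Bhlhb9, Dok7 and Pdxdc1, on 1 array each). Detection is the well-above-background flag of any spot. No spot was saturated (0 spots). No test was run, since each time point has 1 array. Names, classes, probe sequences and coordinates come from the study's lists of lncRNAs, which also hold fold changes that were not used. Some lists were read in part, and some items are not reported here.

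The transcripts, the 13 gene lists and the rule for named genes were chosen with earlier results of these data known. Named are the 5 highest and 5 lowest of each of the 6 comparisons among transcripts above background on both arrays, the members of the gene lists, transcripts in all lists of one direction or in both directions, the brightest and those at the detection limit. BC094916, Vwf, Adra1a and the antisense pairs in the text were picked for their values where the rule does not name them. Hosts and windows before gene starts come from RefSeq, GRCm38.p6. A search of probes in host proteins was planned and not run.

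Alternatives were quantile normalisation of the log2 processed intensity, the 75th percentile, the median of probes detected on all arrays, cyclic loess, normexp with an offset of 50, the median intensity without background subtraction, other filters, and limits of 1.5-fold and 4-fold. Python 3.11.15, numpy 2.4.6, pandas 2.3.3, matplotlib 3.10.9, R 4.3.3 and limma 3.58.1 were used.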

Additional observations from a re-analysis of the deposited data

Results flagged for a closer look

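The difference from 0 h was called in opposite directions at 72 h and 96 h for some transcripts. For 25 of them, where 0.449% of all probes did so, the 72 h value exceeded that of 0 h by 2-fold or more while that of 96 h fell short of it by as much. All 4 arrays were well above background for 22 of these. Ifi44, Oas1g, Ifi203, IkappaB-zeta, Bcl6, Cars, Stc2, Cd52, Kdm6b and BC094916 are among them. The other 9, where 0.619% of all probes did so, had the reverse order and include 1700025G04Rik, AK207499, Adra1a, Lmna, Lpcat1, Sec23b, Vim and Vwf. Differences against 0 h chose the members, so the excess of such counts over all probes follows in part from the choice. With 1 array per stage the difference between stages was not tested. The arrays of 0 h and 72 h share slide 1 and that of 96 h is on slide 2, and the part of the slide was not tested.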

How the results depend on the processing

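No paired analysis was possible because each stage has 1 array, and leaving out a replicate was not possible for the same reason. No called value changed sign under any setting run. Counts below are transcripts higher and then lower. Cyclic loess, quantile normalisation from the spots, the 75th percentile and the median scaling moved no count of calls by over 1.5 times. The log2 differences themselves did move. The median of all transcripts entered at 96 h against 72 h was -0.20. It was 0.29 with the 75th percentile, 0.24 with the median scaling, 0.00 with cyclic loess and -0.19 with quantile normalisation from the spots. With normexp, 59 were higher at 24 h against 0 h, with 91 and 13 at 72 h, and 100 and 28 at 96 h, 90 and 77 for 72 h against 24 h, 102 and 109 for 96 h against 72 h, and 64 and 56 for 96 h against 24 h. Without background subtraction these were 80, then 101 and 13, 120 and 31, 99 and 82, 118 and 120, and 73 and 74. Detection on both arrays left 138 higher at 24 h against 0 h and 75 lower at 96 h against 24 h. Detection on all 4 arrays, which leaves fewer transcripts, gave 124 higher at 24 h and 189 at 96 h against 0 h, and 96 lower at 72 h against 24 h, 141 at 96 h against 72 h and 59 at 96 h against 24 h. With no filter or floor, 67 were lower at 24 h and 68 at 72 h against 0 h, 237 and 276 were called for 72 h against 24 h, and 326 were higher at 96 h against 72 h and 189 against 24 h. At 1.5-fold, 49 were lower at 72 h and 93 at 96 h against 0 h, with 273 and 247 for 72 h against 24 h, and 199 and 229 for 96 h against 24 h. At 4-fold the counts were 22 and 9, 30 and 4, and 19 and 15 against 0 h, 34 and 19 for 72 h against 24 h, 32 and 69 for 96 h against 72 h, and 20 and 40 for 96 h against 24 h. The looser detection flag of the scanner software held for 829 transcripts at 0 h. The 55 transcripts higher on slide 2 were 15 with normexp and 18 without background subtraction, alternatives chosen after seeing the data. The cause was not tested. The planned match of probes to host proteins was not run. Signal over background limits the values near the floors, where folds are lower bounds.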
